A study of Rattus norvegicus with 6 samples.

Results

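Transcripts enriched in the alpha and delta cells of the islet were compared between the islets of young and older rats. The 7 genes were taken by symbol as a list set with earlier results of these data known, and no threshold on their values was applied: Irx1, Irx2, Ttr, Dpp4 and Slc7a2 as 5 genes enriched in alpha cells, and Hhex and Rbp4 as 2 genes enriched in delta cells. They were represented by 8 probes, of 24684 probes and 13903 named genes on the array. Pancreatic islets were isolated by collagenase digestion from male Wistar rats, an outbred strain, that were either 3 months or 12 months old, with 3 arrays per age and 1 rat per array as the series' design text implies. No treatment or genetic change was named for either group. Each array measured the total RNA of whole islets, labelled with the dye Cy3, so all cell types of the islet, and any exocrine tissue attached to it, contributed to 1 value per gene.

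Alpha cells secrete glucagon and delta cells secrete somatostatin, and both sit among the more numerous beta cells of the rodent islet. Their identity is held by transcription factors, among which the Iroquois protein Irx2 is associated with alpha cells and the homeobox protein Hhex is required for delta cells. The other genes considered here encode a plasma carrier of thyroid hormone and retinol-binding protein (Ttr), the retinol carrier itself (Rbp4), a membrane peptidase that inactivates incretins (Dpp4) and a transporter of cationic amino acids such as arginine (Slc7a2).

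Hhex rose between 3 and 12 months of age, by 1.68 on the log2 scale or 3.20-fold. Rbp4 was 1.66-fold higher on average at 12 months, but did not pass the test after adjustment for all probes. Irx2, Ttr, Dpp4 and Slc7a2 had overlapping values at the 2 ages, and the signal of Irx1 was at background on every array. Levels are quantile-normalised log2 signals throughout, and differences are 12-month minus 3-month means.

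The sequences directly before the annotated starts of Hhex and Rbp4 are shown because these were the 2 members without overlap between the ages, and because both genes lie on chromosome 1. Capitals mark the TATA box (TATAAA), the CCAAT box (CCAAT) and the GC box (GGGCGG), searched on both strands. Each sequence is the 250 bases before the RefSeq start in the assembly GRCr8, given 5′ to 3′ on the strand of the gene. Hhex lies on the plus strand at chr1:244602695-244602944, and Rbp4 on the minus strand at chr1:245313552-245313801.
Hhex: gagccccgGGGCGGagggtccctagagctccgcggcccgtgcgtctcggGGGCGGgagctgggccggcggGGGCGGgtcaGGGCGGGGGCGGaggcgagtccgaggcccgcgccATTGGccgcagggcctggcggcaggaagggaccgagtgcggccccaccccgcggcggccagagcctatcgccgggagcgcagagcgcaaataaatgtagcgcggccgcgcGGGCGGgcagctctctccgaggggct
Rbp4: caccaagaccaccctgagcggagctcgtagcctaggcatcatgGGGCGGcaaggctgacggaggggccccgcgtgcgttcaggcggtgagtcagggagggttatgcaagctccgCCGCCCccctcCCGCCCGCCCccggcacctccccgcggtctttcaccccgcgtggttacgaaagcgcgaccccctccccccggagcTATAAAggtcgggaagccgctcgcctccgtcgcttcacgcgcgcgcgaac

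The Hhex sequence was 78.4% G and C and held 6 GC boxes, the nearest 26 bases before the start, as well as 1 CCAAT box 136 bases before it. The Rbp4 sequence was 70.8% G and C, with 1 TATA box 50 bases before the start and 4 GC boxes, the nearest 121 bases away. A TATA box was present in 12.9%, a CCAAT box in 34% and a GC box in 30.5% of the 33469 rat promoter sequences of the same length. Neither sequence held an E-box (CANNTG, in 65.5% of promoters), the homeodomain core TAATNA (25.4%) or the forkhead core TGTTTAC (3.21%). A match describes the letters of this window only.

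Some properties of the arrays followed age. Each scan held the 3 arrays of 1 age, and the effects of scan and age cannot be told apart. Islet identity was clear on all 6 arrays, where the hormone transcripts Ins1, Gcg and Sst were well above background, as were 7 of 7 tested transcripts of acinar enzymes. Of all probes, 61.2% ± 2.62 (SD, n = 3) were well above background at 12 months and 75.6% ± 2.29 (SD, n = 3) at 3 months, and the median signal of the negative controls was 90.5 ± 0.866 and 30.2 ± 0.764 scanner units (SD, n = 3). Correlations ranged from 0.941 to 0.977 between arrays of the same age and from 0.888 to 0.956 between ages. Across the 17941 probes tested, the median difference between the ages was −0.17. The share of probes higher at 12 months with an adjusted p under 0.05 in limma was 5.32% (955 probes), and 8.37% (1502 probes) passed in either direction.

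Hhex was the member with the largest difference. Its level was 10.86, 10.45 and 10.15 on the 12-month arrays and 8.89, 9.06 and 8.48 on the 3-month arrays. Every 12-month value lay above every 3-month value, by more than the distance between arrays of the same age. The means were 10.49 ± 0.36 at 12 months and 8.81 ± 0.30 at 3 months (SD, n = 3 arrays each).

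The difference of Hhex was 1.68 (SE 0.29, 95% interval 0.98 to 2.37), a 3.20-fold rise with an interval of 1.98 to 5.18, and its adjusted p in limma was 0.0236. The exact two-sided permutation test gave p = 0.1, the smallest value that 20 arrangements of 3 against 3 arrays allow. Among all tested probes, 9.44% had a difference of larger size. The scanner signals before normalisation, 3716, 2429 and 1075 units at 12 months and 146, 472 and 392 units at 3 months, did not overlap either. Such signals also carry the brightness of the whole array. The 75th percentile of all probes was 1989 ± 729 units at 12 months and 1004 ± 579 units at 3 months (SD, n = 3). The call of Hhex was lost, with its direction kept, when the first or the third 12-month array was left out (adjusted p = 0.0967 and 0.0570 in limma) and when the first or the third 3-month array was left out (0.0759 and 0.0701).

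Rbp4, which carries retinol in plasma and is made by the liver and fat as well as by delta cells, had the smallest spread between arrays of the same age among the tested members. Its level was 14.16, 14.21 and 13.94 at 12 months and 13.30, 13.39 and 13.42 at 3 months. The ages did not overlap, although they stood closer together than those of Hhex. The difference was 0.73 (SE 0.22, 95% interval 0.21 to 1.25), or 1.66-fold (1.16 to 2.38), with an unadjusted p of 0.0127 and an adjusted p of 0.0794 in limma. The exact permutation test gave p = 0.1, the smallest possible.

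For Rbp4, 41.4% of all tested probes had a difference of larger size, so the separation of the 2 ages came with a modest change in level. Before normalisation its signals did overlap, at 31383, 31548 and 12694 scanner units at 12 months against 3020, 11261 and 14932 units at 3 months. The brightness of the whole array enters these signals too. With each array shifted to a common 75th percentile in place of quantile normalisation, the difference was 0.40, and the median difference of all tested probes moved from −0.17 to −0.40.

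The alpha cell transcription factors gave different kinds of result. Irx2 was well above background on all 6 arrays, with 11.21, 11.71 and 11.08 at 12 months and 11.06, 11.36 and 11.11 at 3 months. These values overlapped, and the difference of 0.16 had a 95% interval from −0.47 to 0.78 (adjusted p = 0.699 in limma). Without the second 12-month array the difference was −0.031. Irx1, its neighbour on chromosome 1 with no protein-coding gene between them, reached the level of well above background on 0 of 6 arrays and was therefore not tested. Its measured values were 2.02, 2.02 and 2.01 at 12 months and 2.29, 3.00 and 3.17 at 3 months, and no fold is given because both groups lay at background.

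Ttr, the transthyretin gene, was lower on average at 12 months. Its level was 10.10, 10.36 and 10.58 at 12 months and 10.67, 10.91 and 10.52 at 3 months. The ages overlapped by 1 array, since the highest 12-month value exceeded the lowest 3-month value. The difference of −0.36 (95% interval −0.95 to 0.23) did not pass the test (adjusted p = 0.343 in limma).

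Dpp4 and Slc7a2 varied more between arrays of the same age than the other members. Dpp4 read 9.79, 8.42 and 8.74 at 12 months and 9.90, 9.63 and 8.68 at 3 months. One array of each age was thus near the other age's values, and the difference of −0.42 had a wide interval (−1.54 to 0.70, adjusted p = 0.556 in limma). Slc7a2 read 7.69, 8.20 and 7.02 at 12 months and 7.52, 8.02 and 8.78 at 3 months on the brighter of its 2 probes. The ages overlapped, with a difference of −0.47 (95% interval −1.51 to 0.56, adjusted p = 0.472 in limma). The second Slc7a2 probe gave −0.34 (adjusted p = 0.667 in limma), so both probes of this transporter had lower means at 12 months without passing the test. With the replicate block of the numbered pairs alone, the sign of the Slc7a2 difference turned, to 0.17.

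**Figure D1:**
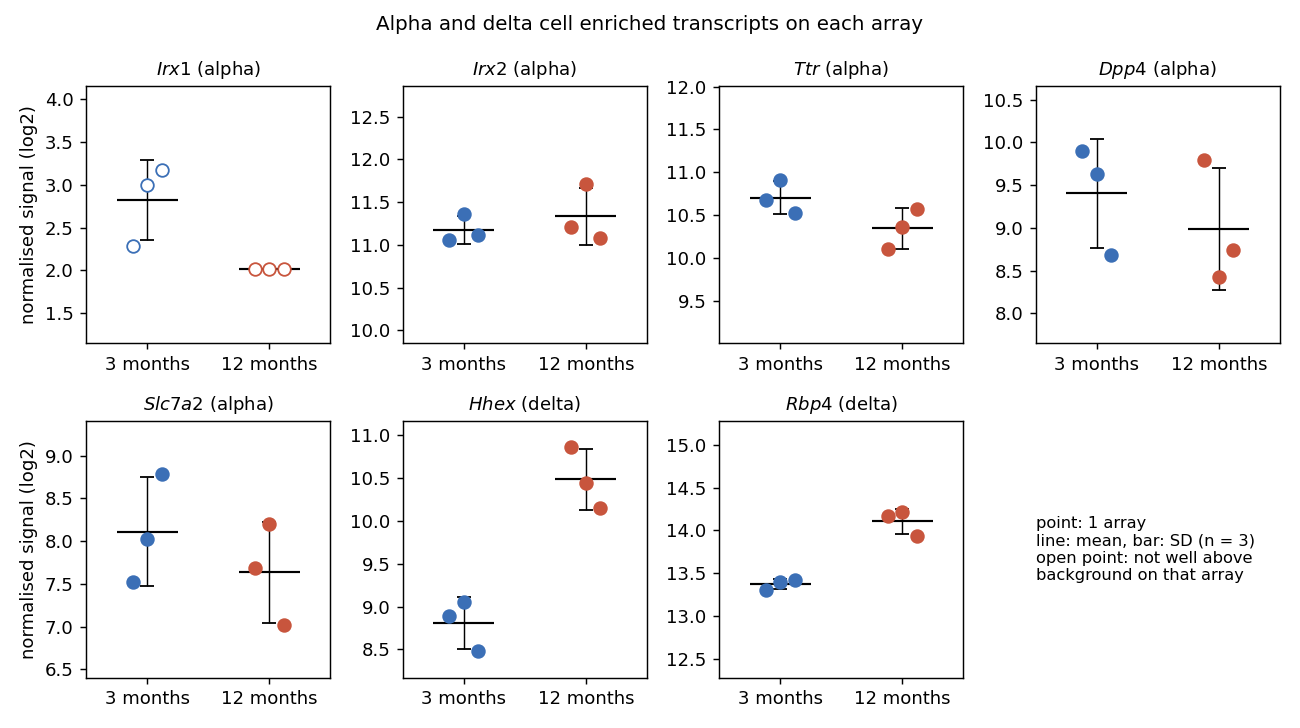
Quantile-normalised log2 signal (vertical axes, each spanning its own range) of the 7 genes on each array by age; points are arrays, lines are means and bars are SD (n = 3), with open points where the probe was not well above background. Hhex (8.48 to 9.06 against 10.15 to 10.86) and Rbp4 (13.30 to 13.42 against 13.94 to 14.21) do not overlap between 3 and 12 months, whereas Irx2, Ttr, Dpp4 and Slc7a2 do.

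The spread between arrays of the same age set what could be seen. The within-age SD was 0.11 for Rbp4, 0.22 for Ttr, 0.26 for Irx2, 0.33 for Hhex, 0.61 for Slc7a2 and 0.68 for Dpp4, against a median of 0.43 over all tested probes. Dpp4 and Slc7a2 were thus noisier than the typical probe, and a 2-fold change of either in the direction of its mean lay within its interval. The interval of Irx2 excluded a 2-fold change in either direction, and that of Ttr excluded a 2-fold rise and, narrowly, a 2-fold fall.

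By count, 1 of the 6 tested members (Hhex) had an adjusted p under 0.05 in limma, beside 8.37% of all tested probes. The study's limits, an unadjusted p under 0.05 and more than a 2-fold difference, were applied here to limma values. The count was again 1 of 6, beside 22.0% of all tested probes in either direction and 10.1% higher at 12 months. The supplement of the study names a paired test for its p-values, so these shares are not the study's own counts. For 2 of 6, Hhex and Rbp4, the ages did not overlap, and both were higher at 12 months. The same held for 39.1% of all tested probes in either direction and for 16.5% in the higher direction.

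The hormones of the same cells were set beside the members. In bulk tissue, fewer cells of a type and less RNA per cell cannot be told apart. The hormone signals lay near the top of the range, where quantile normalisation gives arrays the same values by rank. Gcg read 18.01 on each 3-month array, and Ins1 read 18.72 on arrays of both ages. Hormone differences can thus be limited by the method and do not measure cell number. Glucagon (Gcg) differed by 0.19 (adjusted p = 0.559 in limma) and somatostatin (Sst) by 0.32 (adjusted p = 0.372 in limma), while insulin 1 (Ins1) differed by 0.10. Relative to somatostatin on the same array, the difference was 1.36 for Hhex and 0.42 for Rbp4. Relative to glucagon it was −0.03 for Irx2, −0.55 for Ttr, −0.61 for Dpp4 and −0.66 for Slc7a2. Hhex and Rbp4 thus had higher means at 12 months relative to somatostatin. All 4 tested alpha cell genes had lower means relative to glucagon, with Irx2 close to 0. A probe at the median difference of all tested probes (−0.17) would also be lower relative to glucagon (0.19), so this direction is not particular to alpha cell genes. In the exact permutation test these ratios gave p = 0.1 for Hhex, Rbp4 and Ttr, the smallest possible value, and 0.3 or more for the other 3. That smallest value says only that the ages do not overlap. Without a ratio to a hormone, the same held for 39.1% of all tested probes. With Benjamini and Hochberg adjustment of the permutation test over the 6 ratios, the p of these 3 genes was 0.2.

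Other alpha cell transcripts were measured from a list of 18 genes, of which 16 had a probe and 15 were tested. Their median difference was 0.16, and 0.24 over the 11 that were not members, against −0.17 over all tested probes. Only Ldb2, a cofactor of LIM-domain transcription factors that is also present in endothelial cells, passed the test, and it fell by 1.65 (adjusted p = 0.0494 in limma). The remaining tested genes of the list did not pass in either direction.

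Of 12 delta cell transcripts, all had a probe and 10 were tested. Hhex was the only one called, and the median difference was 0.65, or 0.44 over the 8 that were not members. These 8 did not move one way, since 5 had higher and 3 had lower means at 12 months. At the extremes, chosen after their values were seen, Bche (butyrylcholinesterase) differed by 1.39 (adjusted p = 0.202 in limma) and Edn3 (endothelin 3) by −2.09 (adjusted p = 0.0689 in limma).

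**Figure D2:**
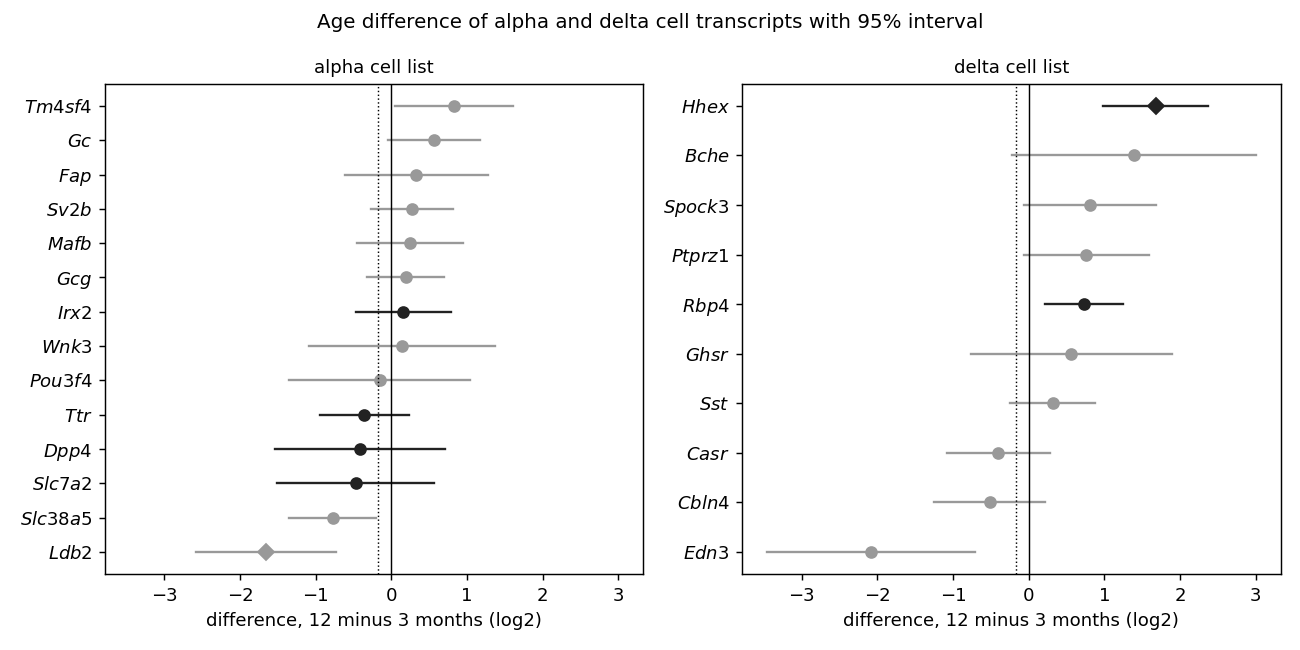
Difference between the ages (log2, 12 minus 3 months, horizontal axis) for the tested genes of the alpha and delta cell lists that are reported here, with its 95% interval from limma; black marks the members, diamonds an adjusted p under 0.05, and the dotted line the median of all tested probes (−0.17). Hhex and Ldb2 are the only diamonds. Among the circles, the interval of Rbp4 lies above 0, as does that of Tm4sf4, while those of Slc38a5 and Edn3 lie below 0.

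Markers of other cell types were read from the same arrays, and their part in the member results was not tested. Endothelial markers had a median difference of −0.76 (6 tested, 1 higher and 5 lower, none called). The sum of their signals ranged from 56562 to 73892 at 3 months and from 31498 to 53085 at 12 months. Plvap was the brightest gene in these sums, with means of 15.73 at 3 months and 15.14 at 12 months (adjusted p = 0.194 in limma). The endothelial cadherin Cdh5 was not well above background at 12 months, at least 1.54-fold lower than at 3 months (adjusted p = 0.0515 in limma), whereas Pecam1 differed by 1.23 (adjusted p = 0.123 in limma). Stellate and mesenchymal markers had higher means for all 6 tested genes, with a median of 1.46. Of these, Pdgfrb, the receptor found on pericytes, rose by 1.68 (adjusted p = 0.0453 in limma), and the sums, over the genes with a value on every array, were 9728 to 17000 and 25324 to 64920.

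Schwann and nerve markers had lower means for all 5 tested genes (median −0.56), with sums of 2949 to 3636 at 3 months and 1830 to 2416 at 12 months. Sox10, the glial transcription factor, fell by 2.08 (adjusted p = 0.0335 in limma), with 1 of the 3-month arrays lacking a value. Sox10 is for that reason not part of the sums. Exocrine markers had medians of 0.11 for 7 acinar genes and −0.09 for 4 duct genes, none of them called. These medians do not measure the amount of exocrine tissue. Acinar signals such as Cpb1 (means 18.45 at 12 months and 18.32 at 3 months) lay near the top of the range, like the hormones. Ctrb1, a chymotrypsinogen, had the largest acinar difference, at 0.74 (adjusted p = 0.670), followed by −0.19 for the elastase Cela1 (adjusted p = 0.753). Ctrb1 varied widely within each age, from 14.39 to 17.91 at 12 months and from 14.02 to 17.07 at 3 months. Among duct genes the chloride channel Cftr differed by 0.29 (adjusted p = 0.679). All 3 adjusted p-values are from limma.

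Rbp4 and Ttr are also hepatocyte products, so markers of that cell type were read as well. The 4 tested hepatocyte genes had a median difference of 0.20, and none was called. The largest were −0.70 for albumin (Alb, adjusted p = 0.456) and 0.62 for Serpina1 (adjusted p = 0.308), both in limma. The sums ranged from 7805 to 19790 at 3 months and from 13589 to 22786 at 12 months. Serpina1 was the brightest gene in them, and their part in the Rbp4 and Ttr values was not tested. Immune markers had a median of −0.06, with Cd74 at 1.72 (adjusted p = 0.457) and C1qa at −1.03 (adjusted p = 0.188 in limma), and none was called.

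The endocrine lists held larger differences than the members. Of 8 beta cell genes tested, the glucose transporter Slc2a2 rose by 4.11 (adjusted p = 0.0037) and the zinc transporter Slc30a8 by 3.71 (adjusted p = 0.00904), with a list median of 0.53. Among 9 genes of all endocrine cells (median 0.35), the transcription factors Isl1, Neurod1 and Pax6 rose by 3.25, 2.20 and 1.19 (adjusted p = 0.0106, 0.0108 and 0.0489). These values are from limma. The 3 tested PP cell genes had a median of 0.22, led by pancreatic polypeptide (Ppy, 0.44, adjusted p = 0.195) and peptide YY (Pyy, 0.22, adjusted p = 0.639 in limma).

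**Figure D3:**
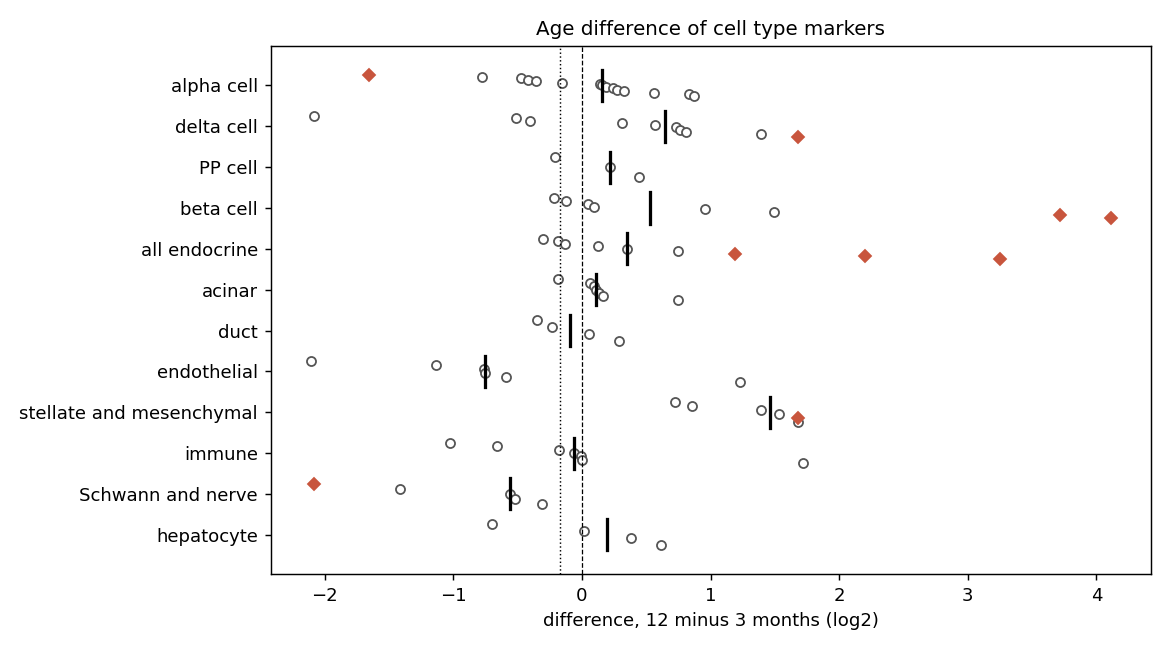
Difference between the ages (log2, 12 minus 3 months, horizontal axis) of the tested genes in 12 lists of cell type markers; each point is a gene, filled diamonds have an adjusted p under 0.05 in limma, upright bars are list medians and the dotted line is the median of all tested probes. Stellate and mesenchymal genes lie to the right of 0 (median 1.46), Schwann and nerve genes to the left (median −0.56), and alpha and delta cell genes on both sides.

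The pathways in which the members act were described in the same way. In the Iroquois family, 2 of 6 genes were tested, and Irx5 differed by 0.19 (adjusted p = 0.807 in limma), close to the 0.16 of Irx2. Retinoid carriers, enzymes and receptors, the setting of Rbp4 and Ttr, comprised 15 tested genes with a median of −0.50. Of these, 4 had higher and 11 had lower means at 12 months, and Rdh10, which oxidises retinol to retinal, was the only one called (1.32, adjusted p = 0.0485 in limma). Rbp4 thus had a higher mean at 12 months in a list whose other members were mostly lower. Thyroid hormone genes, the other setting of Ttr, had a median of −0.36 over 9 tested and none called. Dio3, a deiodinase, differed by 2.43 (adjusted p = 0.122 in limma), although it was well above background on only 2 of the 3-month arrays.

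For Dpp4, 7 members of the prolyl peptidase family were tested (median 0.87). Dpp10, which lacks peptidase activity and associates with potassium channels, rose by 0.94 (adjusted p = 0.0476 in limma), whereas Dpp4 itself had a lower mean. Among the 6 incretin and glucagon ligands and receptors, the substrates of Dpp4 and their targets, the median was −0.25. The receptor Glp2r was the only one called, at least 1.61-fold lower at 12 months, where it was not well above background (adjusted p = 0.0383 in limma). The 4 tested somatostatin receptors, through which delta cells act on their neighbours, had a median of 0.49 and none was called, with Sstr2 at 0.67 (adjusted p = 0.192) and Sstr3 at 0.55 (adjusted p = 0.692 in limma).

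For Slc7a2, 14 genes of cationic amino acid transport and arginine metabolism were tested, with a median of −0.37 and 6 higher against 8 lower means. Slc3a1, the heavy chain of a cystine and dibasic amino acid transporter, rose by 4.12 (adjusted p = 0.0278 in limma), although it was well above background on only 2 of the 3-month arrays. The other 13, Slc7a2 among them, did not pass.

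Hhex and Rbp4 lie near each other on chromosome 1, with 7 protein-coding genes between them, of which 3 were tested. All 3 had higher means at 12 months: Exoc6 by 0.65 (adjusted p = 0.251), Cep55 by 0.78 (adjusted p = 0.179) and Ffar4, a receptor for long-chain fatty acids, by 1.42 (adjusted p = 0.0481 in limma). Over all tested probes, the median difference was −0.17 and 5.32% were called higher at 12 months. These names follow from the position of the members and were taken after the values were known. A shared change of the region was not tested.

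The genes nearest to each member by pattern were found from the 6 values of 11149 genes, each centred on its own mean, as the root mean square difference. For Hhex these were Rbm39, a splicing factor, at 0.169 and Gatc at 0.190, whose own differences between the ages were 1.83 and 1.82. Rbp4 was nearest to Rbbp7 (0.058) and Bcap29 (0.062), Irx2 to Cfap97 (0.039) and Mettl25 (0.045), and Ttr to Mrpl20 (0.083) and Dolpp1 (0.095). Dpp4 was nearest to Lrg1 (0.129) and Lims2 (0.144), and Slc7a2 to Ints2 (0.098) and Dmrta1 (0.130). None of these genes belongs to the alpha or delta cell lists, and with 6 arrays such likeness is a description only.

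The differences were computed again under 18 other settings of normalisation, filter, test, pairing and arrays. Hhex had a positive difference in all 18, from 1.45 to 1.89, and an adjusted p under 0.05 in 9 of them, with a range from 0.0161 to 0.253. Rbp4 was also positive in all 18 (0.40 to 0.84) and passed in 1, with an intensity trend and robust variances (adjusted p = 0.0270 in limma). Ttr (−0.56 to −0.23) and Dpp4 (−0.82 to −0.05) were negative in all 18 and passed in none, while Irx2 and Slc7a2 changed sign in 1 setting each. Among the called genes that were not members, Slc2a2, Slc30a8, Isl1 and Neurod1 passed with any 1 of the 6 arrays left out. Slc3a1 passed in 3 of these 6 fits, Pdgfrb in 2, Ldb2, Sox10, Rdh10, Glp2r and Ffar4 in 1 each, and Pax6 and Dpp10 in 0, all with the direction kept in every fit. Without the third 12-month array, or without the first or the third 3-month array, none of these 9 passed in limma.

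**Figure D4:**
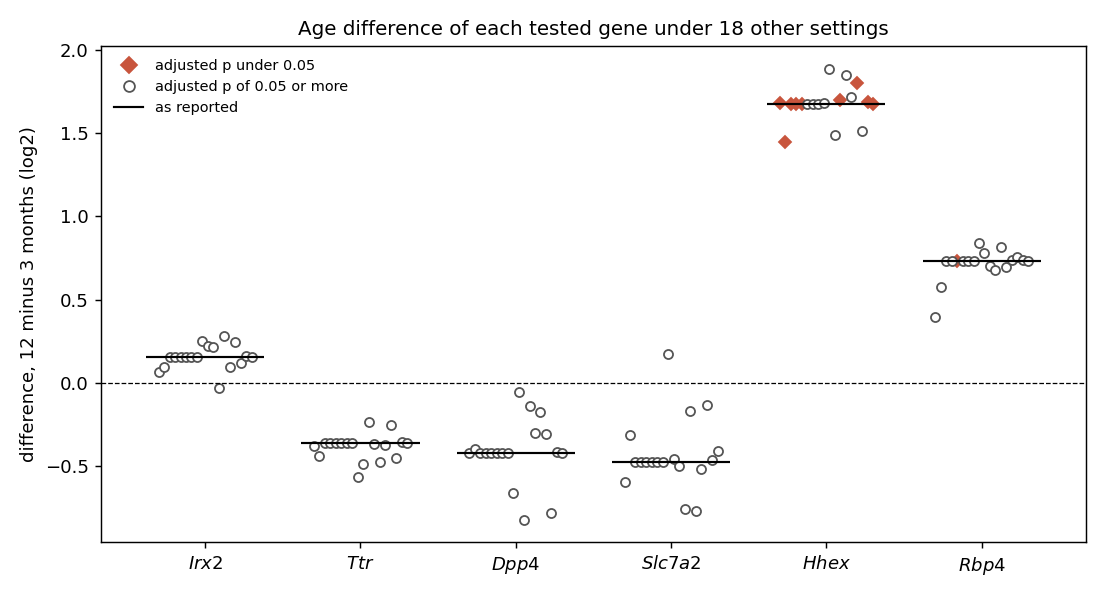
Difference between the ages (log2, 12 minus 3 months, vertical axis) of the 6 tested members under each of 18 other settings; points are settings, filled diamonds those with an adjusted p under 0.05, and the black line the value as reported. All Hhex points lie between 1.45 and 1.89, with 9 filled, and Rbp4 has 1 filled point.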

How the data were processed

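Arraystar expression arrays of 3 islet samples from 3-month and 3 from 12-month male Wistar rats were read with Agilent Feature Extraction 11.0.1.1, per the file headers. The deposited intensity of a spot is that software's background-subtracted processed signal. The authors' deposited log2 table of 12145 quantile-normalised probes had a lowest correlation of 0.9996 with the values computed here and served as an alternative. The intensities were averaged over unflagged spots of a probe, taken to log2 and quantile normalised over all probes that are not controls (42136 spots). Probes well above background on at least 3 of 6 arrays were kept (17944), and 17941 were tested in R 4.3.3 with limma 3.58.1. Adjusted p-values are those of Benjamini and Hochberg over all 17941. Of the kept probes, 68 lacked a value on at least 1 array. Single values were also compared with the exact permutation test. No member probe was saturated, and precision is limited by the 6 arrays.

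RefSeq accessions of the probes, without version, were matched to the GRCr8 gene table (14294 probes named), and a gene took its brightest probe. The array was designed on an earlier build, so no coordinates of probes are given. All 7 members matched, and 6 of 7 had an entry in the promoter table.

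Replicates follow the labels, in which 2 of the 12-month arrays carry a number. The remaining array is called the third here. Whether equal numbers mark shared handling was checked on the arrays, and no positive correlation was found, as the closing section gives. That check cannot exclude a pairing.

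Members, gene lists and the rules for naming genes were chosen with earlier results of these data known. Named were all members, the hormones, the called genes of each list or, where none was called, the 2 with the largest difference, and the 2 nearest genes by pattern. Other names are said to be chosen after their values were seen, and a few genes that the rule names are not reported here. The test was checked on simulated data. Alternatives covered normalisation, background correction, the filter, variances, t-tests, pairing, arrays, the deposited table and the probe of a gene.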

Additional observations from a re-analysis of the deposited data

How the results depend on the processing

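The number of members with an adjusted p under 0.05 was 1 as reported and ranged from 0 to 1 when each array was left out in turn. It was 2 with an intensity trend and robust variances (probes with a value on every array), and 0 with the methods' t-test, with the paired t-test and with only 12-month arrays 1 and 2 and 3-month arrays 2 and 3, which have names that end alike. Arrays with equal replicate numbers had deviations from the age means that correlated at −0.01, −0.31 and −0.26, none of them positive. The supplement of the study names a paired t-test, and these few correlations cannot exclude a pairing. With a replicate block of 3 pairs, the third formed by elimination, the count was 0 and the adjusted p of Hhex was 0.0855. With the replicate block of the numbered pairs only it was again 0, the adjusted p of Hhex was 0.253 and the difference of Slc7a2 was 0.17. The only other change of sign was Irx2 without the second 12-month array, and its differences with 1 array left out ranged from −0.031 to 0.28. The number at the threshold of the study was 1 under every setting. Over all tested probes, 1502 calls became 435 with the methods' t-test, 1 with the paired t-test, 97 with the block of 3 pairs, 0 with the numbered pairs and 0 with these 4 arrays, 2339 with no filter on dim probes, and between 208 and 2163 when 1 array was left out (208 and 288 without the first and the third 12-month array, 322 and 459 without the first and the third 3-month array). A lost call of Hhex at these sizes came with a difference of 1.49 or more. Fewer arrays or degrees of freedom entered each of those tests, and the t-tests did not share variances between probes. What lost the calls was not tested. Signal over background limits Irx1, which could not be compared.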
